A study of Mus musculus with 24 samples.

Results

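Macrophages carry surface receptors that bind sugars, modified lipoproteins and microbial particles, and the messenger RNAs of 10 of these receptors are described here in mouse lung. The members were chosen by gene: the C-type lectin receptors Mrc1, Clec7a, Clec10a, Mgl2, Clec4n, Clec4d and Clec4e, and the scavenger receptors Cd163, Msr1 and Marco. Every probe set that the platform annotation gave to one of these genes alone was used, which made 16 of 45265 probe sets. Of these, 11 probe sets from 9 of the 10 genes passed the filter on low signal and were tested. The other 5, including both probe sets of Clec4e, lay under it.

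Lung tissue came from 4 groups of 3 samples: mice of the IL-13 KO strain treated with HDM, the same strain treated with PBS, wild-type mice treated with HDM and wild-type mice treated with PBS. The cytokine IL-13 drives type 2 responses and acts on macrophages, epithelium and smooth muscle. The label HDM most often stands for house dust mite and PBS for phosphate-buffered saline, which the labels do not spell out. Background strain, dose, schedule, age and sex are not given in the sources used here. Nor do the labels say that each sample was a different mouse, and the p-values therefore rest only on sample-to-sample spread, which may be technical.

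C-type lectin receptors read the outer sugars of fungi, mites and host glycoproteins, and several of them signal through the Fc receptor gamma chain and the kinase Syk. Scavenger receptors take up polyanionic ligands such as modified lipoproteins, bacteria and inhaled particles, and CD163 clears haemoglobin bound to haptoglobin. Mrc1, Clec10a and Mgl2 are commonly used as markers of macrophages exposed to interleukin 4 or interleukin 13, and Marco is a classic receptor of resident alveolar macrophages. Clec4n encodes Dectin-2, which binds glycans of house dust mite extracts. Clec4d and Clec4e are also expressed by neutrophils.

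Of the 10 genes, 5 lie on chromosome 6, according to the RefSeq annotation of assembly GRCm38.p6. Among them Clec4n, Clec4d and Clec4e are direct neighbours in that order. Clec10a and Mgl2 are neighbours on chromosome 11, which also holds the deleted Il13 gene. Promoter sequences of RefSeq (GRCm38.p6) were found for 7 of 10 members. Those of the 4 genes that rose after HDM in both genotypes and had an entry are shown, since these genes moved together. Each is the 250 bases before the transcription start, 5′ to 3′ on the strand of the gene, and capitals mark motif matches. For Clec7a the table held a pair of start sites a few bases apart, and one is printed.
Mrc1, chr2:14229164-14229413, plus strand: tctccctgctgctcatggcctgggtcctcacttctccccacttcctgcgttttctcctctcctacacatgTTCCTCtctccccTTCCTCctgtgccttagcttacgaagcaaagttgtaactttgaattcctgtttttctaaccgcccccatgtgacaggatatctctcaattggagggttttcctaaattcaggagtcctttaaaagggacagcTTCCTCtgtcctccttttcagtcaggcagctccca
Clec7a, chr6:129472780-129473029, minus strand: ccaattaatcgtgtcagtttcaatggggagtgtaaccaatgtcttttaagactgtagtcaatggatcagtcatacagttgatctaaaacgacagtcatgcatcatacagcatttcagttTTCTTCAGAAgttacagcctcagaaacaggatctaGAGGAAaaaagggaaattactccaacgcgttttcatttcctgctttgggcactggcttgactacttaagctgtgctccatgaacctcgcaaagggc
Cd163, chr6:124304401-124304650, plus strand: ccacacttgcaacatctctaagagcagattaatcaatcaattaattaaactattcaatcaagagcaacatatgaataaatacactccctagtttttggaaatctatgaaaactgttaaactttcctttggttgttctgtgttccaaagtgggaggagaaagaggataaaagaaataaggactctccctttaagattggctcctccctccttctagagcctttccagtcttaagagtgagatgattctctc
Mgl2, chr11:70130107-70130356, plus strand: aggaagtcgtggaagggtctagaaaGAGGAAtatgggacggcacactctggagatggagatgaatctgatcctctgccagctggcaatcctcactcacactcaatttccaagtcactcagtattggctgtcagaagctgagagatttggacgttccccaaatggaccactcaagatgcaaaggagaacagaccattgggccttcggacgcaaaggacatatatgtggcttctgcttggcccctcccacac

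Both strands were searched for 4 motifs. They were the STAT6 motif (TTC and GAA with any 4 bases between them), the PU box GAGGAA bound by the myeloid factor PU.1, the AP-1 motif TGANTCA and the C/EBP motif TTGCNNAA. Mrc1 held 3 PU boxes, all on the opposite strand, and Mgl2 held 1. Clec7a held 1 PU box and 1 match to the STAT6 motif, and the printed window of Cd163 held no match to any of the 4. A PU box occurred in 23.3% and the STAT6 motif in 5.85% of 32851 promoter windows of the same length. No match overlapped another, and a match is a run of letters, not a shown binding site.

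Values are linear intensities as deposited, called signal here, and each array had been scaled to a common trimmed mean. Differences are on a log2(signal + 7) scale (11 in place of 7 on the second array set, which holds a single member probe set, of Marco), so they understate changes of low signals. "Called" means an adjusted p under 0.05 in limma, with Benjamini-Hochberg adjustment over all 31511 tested probe sets. Errors of log2 differences are standard errors, and signals are means ± SD, with n = 3 in each group. The deleted gene, Il13, was low everywhere, at 8.71 to 15.5 in KO HDM, 3.30 to 9.45 in KO PBS, 15.5 to 29.9 in wild-type HDM and 4.65 to 12.1 in wild-type PBS samples, under the filter, so it checks the labels weakly. Muscle RNA was uneven, with Tnnc2 at 6.59 to 988 in wild-type HDM and 2.96 to 413 in wild-type PBS samples, against at most 4.95 in KO samples. The 5′ to 3′ actin ratio, a measure of RNA integrity, was 0.464 to 0.656 in KO HDM samples and 0.695 to 0.832 in wild-type HDM samples on the first array set, without overlap, against 0.748 to 0.854 in KO PBS and 0.409 to 0.898 in wild-type PBS samples. In whole-lung RNA, more cells of a type and more RNA per cell cannot be told apart.

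After HDM, 6 of the 11 tested member probe sets rose in KO lung and 6 in wild-type lung, and none fell in either. Mrc1, Clec7a, Cd163, Clec10a and Mgl2 rose in both genotypes. Clec4n rose in KO lung, and Msr1 rose in wild-type lung. Over all tested probe sets 4.33% were called higher in KO and 3.92% in wild type. The median log2 difference of the 11 member probe sets was 0.98 in KO and 0.78 in wild type, against a median near 0 for all probe sets (-0.0046 and -0.0048). Without the 3 wild-type samples with muscle RNA, which leaves 1 wild-type HDM sample, the wild-type calls of Clec10a, Mgl2 and Msr1 were lost. The actin ratio was also lower in KO HDM than in KO PBS samples on the first array set, without overlap, and its part in the KO effects was not tested.

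Mrc1, the macrophage mannose receptor, had signals of 1016, 926 and 777 in KO HDM samples, against 281, 262 and 320 in KO PBS samples. In wild type it had 839, 1030 and 1091 after HDM, against 315, 282 and 307 after PBS. Every HDM sample lay above every PBS sample, and the HDM samples of the genotypes overlapped. The log2 difference was 1.63 ± 0.14 in KO (adjusted p = 2.7e-05) and 1.68 ± 0.14 in wild type (adjusted p = 1.5e-05), about 3.09-fold and 3.21-fold.

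Clec7a encodes Dectin-1, the receptor for fungal beta-glucan, which carries its own signalling motif. It had 1237, 1233 and 1606 in KO HDM samples, against 333, 376 and 404 in KO PBS samples. Wild-type samples had 1335, 1505 and 1618 after HDM, against 368, 322 and 413 after PBS. The treatments were far apart in both genotypes, and the genotypes overlapped within each treatment. Clec7a rose by 1.85 ± 0.14 on the log2 scale in KO (adjusted p = 1.4e-05) and by 2.0 ± 0.14 in wild type (adjusted p = 5.1e-06).

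Cd163, the haemoglobin scavenger receptor, rose in both genotypes and had the highest HDM signals in KO. The KO HDM samples had 380, 300 and 244, against 38.7, 23.1 and 33.5 in the KO PBS samples. The wild-type HDM samples had 96.8, 151 and 167, against 32.9, 26.7 and 33.5 in the wild-type PBS samples. No KO HDM sample overlapped a wild-type HDM sample, and the PBS samples lay together near the filter, so that Cd163 passed it through its HDM samples. The log2 difference was 3.02 ± 0.25 in KO (adjusted p = 2.4e-05), or 8.13-fold, and 1.91 ± 0.25 in wild type (adjusted p = 0.00058), or 3.75-fold.

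Clec10a and Mgl2 encode the mouse macrophage galactose-type lectins, which bind terminal galactose and N-acetylgalactosamine. Clec10a had 241, 225 and 180 in KO HDM samples, against 49.1, 56.5 and 54.1 in KO PBS samples. In wild type it had 121, 140 and 110 after HDM, against 62.4, 47.8 and 27.6 after PBS. The KO HDM samples were all above the wild-type HDM samples, and all HDM samples were above all PBS samples. Clec10a rose by 1.88 ± 0.24 in KO (adjusted p = 0.00055) and by 1.35 ± 0.24 in wild type (adjusted p = 0.0041).

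Mgl2 changed less. Its signals were 141, 165 and 168 in KO HDM samples and 97.4, 99.3 and 109 in KO PBS samples. In wild type they were 190, 179 and 148 after HDM, against 114, 83.9 and 96.5 after PBS. The treatments did not overlap in either genotype. The log2 difference was 0.60 ± 0.16 in KO (adjusted p = 0.039) and 0.78 ± 0.16 in wild type (adjusted p = 0.011). The KO call was lost when 7 of the 12 samples were left out singly (each KO sample and wild-type HDM replicate 2, adjusted p = 0.055 to 0.13). Whether the 2 genes' probes tell these closely related transcripts apart is not known here.

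The Dectin-2 gene Clec4n was measured by 2 probe sets. On the first (suffix s_at, which marks probes that can match related transcripts) signals were 299, 331 and 428 in KO HDM samples, against 150, 204 and 169 in KO PBS samples. Wild-type samples had 201, 201 and 147 after HDM and 195, 129 and 128 after PBS. The KO HDM samples stood above all the other samples, while the wild-type treatments overlapped. The difference was 0.98 ± 0.21 in KO (adjusted p = 0.012) and 0.28 ± 0.21 in wild type (adjusted p = 0.52). The KO call was lost without KO HDM replicate 3 (0.057) or KO PBS replicate 1 (0.051).

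On the second Clec4n probe set (suffix a_at) signals were 106, 71.9 and 107 in KO HDM samples, against 55.2, 45.2 and 62.5 in KO PBS samples. The wild-type values were 47.8, 41.1 and 30.2 after HDM, against 53.0, 51.2 and 39.4 after PBS. As on the first probe set, every KO HDM sample lay above all other samples. The wild-type HDM samples averaged lowest here, and neither HDM effect was called. The differences were 0.72 ± 0.23 in KO (adjusted p = 0.077) and -0.24 ± 0.23 in wild type (adjusted p = 0.64).

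Msr1, the class A scavenger receptor of macrophages, had 4 probe sets. The HDM difference was positive on all 4 in both genotypes, but its size and the calls differed. On the first of them signals were 59.4, 62.6 and 66.2 in KO HDM samples and 44.5, 48.5 and 36.8 in KO PBS samples. They were 73.0, 102 and 93.5 in wild-type HDM samples, against 38.4, 24.7 and 52.0 in wild-type PBS samples. Treatments did not overlap in either genotype, and the wild-type HDM samples were the highest. The difference was 0.48 ± 0.24 in KO (adjusted p = 0.27) and 1.12 ± 0.24 in wild type (adjusted p = 0.013), a call lost without wild-type HDM replicate 2 (0.055) or 3 (0.053). The other tested probe set had differences of 1.41 ± 0.55 in KO (adjusted p = 0.15) and 0.53 ± 0.55 in wild type (adjusted p = 0.67), with KO PBS samples spread over 3.47, 51.8 and 11.8. Without KO PBS replicate 2 its KO difference was 2.10 (adjusted p = 0.02). The other 2 lay under the filter at 5.52 to 45.4. Fitted without the filter, their differences were 0.58 ± 0.31 and 0.76 ± 0.36 in KO, and 0.34 ± 0.31 and 0.12 ± 0.36 in wild type, none called.

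**Figure D1:**
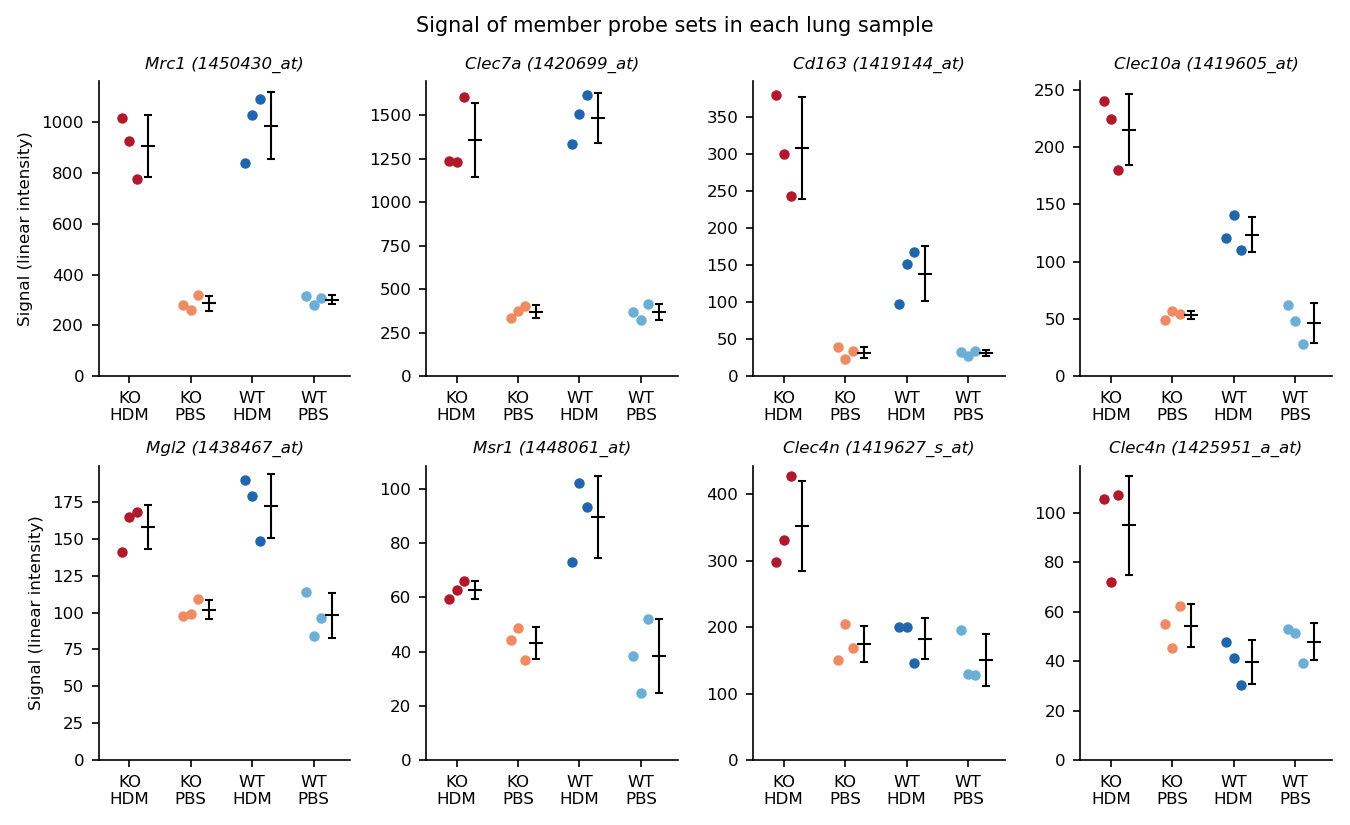
Signal (linear intensity, y axis) of 8 probe sets of 7 member genes in each lung sample of the groups IL-13 KO HDM, KO PBS, wild-type (WT) HDM and WT PBS (x axis); points are samples and black bars are means ± SD (n = 3). Mrc1 and Clec7a separate HDM from PBS alike in both genotypes. For Cd163, Clec10a and both Clec4n probe sets the KO HDM samples lie above all wild-type HDM samples, as did 7.68% of all tested probe sets.

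**Figure D2:**
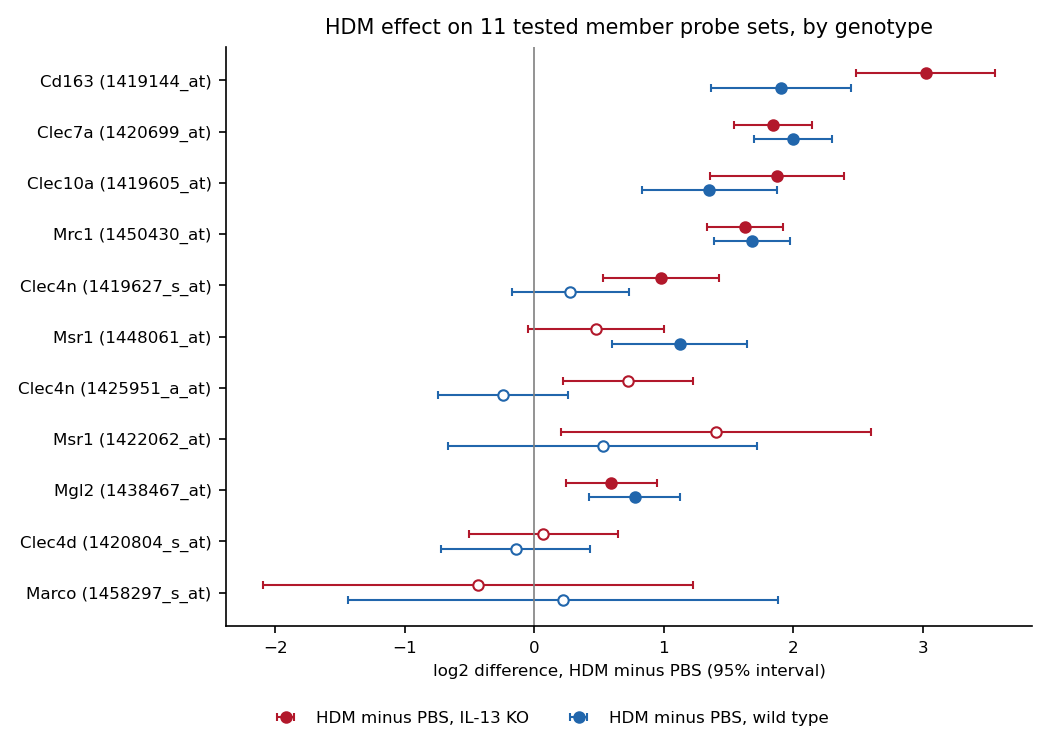
Log2 difference between HDM and PBS (x axis, with 95% intervals from limma) for the 11 tested member probe sets (y axis), in IL-13 KO (red, above) and wild type (blue, below); filled points were called at an adjusted p under 0.05. Cd163 has the largest difference in KO, 3.02, and Clec7a in wild type, 2.0.

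Clec4d, Clec4e and Marco gave low and scattered signals. The tested probe sets of Clec4d and Marco also carry the suffix s_at, so their signals may include related transcripts. Clec4d, the mycobacterial cord factor receptor MCL, had 45.6, 46.8 and 69.8 in KO HDM samples and 44.2, 59.6 and 48.2 in KO PBS samples. Wild-type samples had 55.3, 62.6 and 36.5 after HDM and 67, 39.8 and 66.5 after PBS. All 4 groups overlapped, and the differences were 0.07 ± 0.27 in KO (adjusted p = 0.91) and -0.14 ± 0.27 in wild type (adjusted p = 0.83).

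Clec4e, the related receptor Mincle, did not exceed 32.4 on either of its 2 probe sets in any sample. Fitted without the filter, its HDM differences were -0.62 ± 0.44 and 0.08 ± 0.55 in KO, and 0.30 ± 0.44 and 0.02 ± 0.55 in wild type. With no detection calls used here, such values cannot be set apart from an absence of signal.

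Marco had 5.64, 28.1 and 119 in KO HDM samples and 56.7, 49.5 and 40.3 in KO PBS samples on the tested probe set. In wild type it had 40.0, 14.8 and 139 after HDM and 50.2, 10.4 and 82.9 after PBS. Samples of 1 group differed up to 21.2-fold (KO HDM), and standard errors of 0.76 left the HDM differences of -0.44 in KO and 0.22 in wild type undetermined (adjusted p = 0.79 and 0.92). Its other probe set, under the filter, had 4.70, 7.61 and 6.86 in KO HDM samples against 29.5, 7.97 and 19.4 in KO PBS samples. In wild type that probe set had 6.61, 7.43 and 26.1 after HDM and 6.51, 6.04 and 8.68 after PBS.

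**Figure D3:**
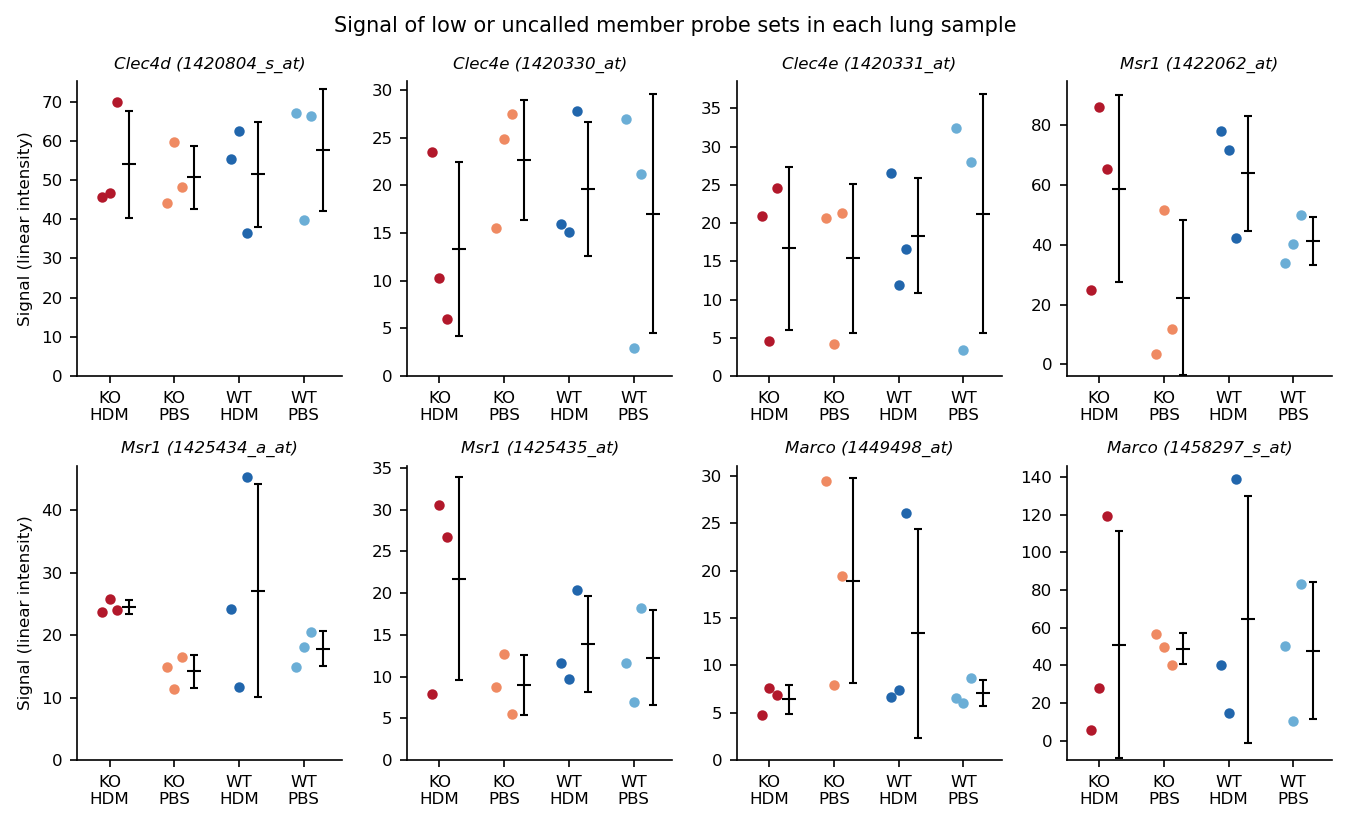
Signal (linear intensity, y axis) of the other 8 member probe sets in each sample of the groups IL-13 KO HDM, KO PBS, wild-type (WT) HDM and WT PBS (x axis); points are samples and black bars are means ± SD (n = 3). Groups overlap widely for Clec4d, Clec4e and the Marco probe set with signals of 5.64 to 139.

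Whether the HDM effect depends on IL-13 was asked with the difference of both effects, KO minus wild type. None of the 11 member probe sets was called, against 0.0889% of all probe sets (limma). At an unadjusted p under 0.05 there were 3 of 11, and 1814 of 31511 over the whole table. These 3 were Cd163 (1.12 ± 0.35, 95% interval 0.35 to 1.88, adjusted p = 0.68) and both probe sets of Clec4n (0.70 ± 0.29, adjusted p = 0.85, and 0.97 ± 0.33, adjusted p = 0.75). In each of them the HDM effect was the larger one in KO.

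For Mrc1 the difference of the effects was -0.05 ± 0.19 (95% interval -0.47 to 0.37) and for Clec7a it was -0.15 ± 0.20 (-0.58 to 0.28). Mgl2 had -0.18 ± 0.23 (-0.68 to 0.32), Clec10a 0.52 ± 0.34 (-0.21 to 1.26) and the first Msr1 probe set -0.65 ± 0.34 (-1.39 to 0.09). All 5 intervals include 0, which does not show that the effects were equal.

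After HDM, KO was set against wild type directly. None of the 11 probe sets was called, against 0.498% of all probe sets (limma), while 4 had an unadjusted p under 0.05, against 2710 of all. In 4 of the 11, all KO HDM samples lay above all wild-type HDM samples, as did 7.68% of all probe sets. They were the single probe sets of Cd163 and Clec10a and both of Clec4n. Cd163 was higher in KO by 1.13 ± 0.25 (adjusted p = 0.089) and Clec10a by 0.76 ± 0.24 (adjusted p = 0.32). The Clec4n probe sets were higher by 0.92 ± 0.21 (adjusted p = 0.099) and 1.12 ± 0.23 (adjusted p = 0.066). The first Msr1 probe set was the one with all KO HDM samples below all wild-type HDM samples (-0.46 ± 0.24, adjusted p = 0.66), as were 7.31% of all probe sets. Mrc1 differed by -0.12 ± 0.14 (95% interval -0.42 to 0.17) and Clec7a by -0.14 ± 0.14 (-0.44 to 0.17).

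Some of these values crossed the threshold in other settings. With each array set fitted and adjusted on its own, which changes both the errors and the number of tests, Cd163 (adjusted p = 0.019) and both probe sets of Clec4n (0.028 and 0.013) were called. Cd163 was also called with a pseudocount of 32 (0.044), and the second Clec4n probe set without the intensity trend (0.043). The lower 5′ to 3′ actin ratio of the KO HDM samples moves with this comparison, and its part in the result was not tested. The summed signal of 17 macrophage and monocyte markers overlapped between KO HDM (14405 to 15420) and wild-type HDM samples (12680 to 15734), as did that of 13 dendritic cell markers (7455 to 8127 and 6479 to 9404). That of 10 neutrophil markers was 2170 to 2241 in KO HDM and 2253 to 2625 in wild-type HDM samples, and its members went both ways. Lcn2 averaged 905 in KO HDM and 1240 in wild-type HDM samples, whereas Csf3r averaged 164 and 123, S100a8 157 and 108, and S100a9 151 and 118, and none was called. The median difference over the 10 was 0.14. The summed signal of 13 cell cycle genes was higher in KO HDM (4274 to 4324) than in wild-type HDM samples (3064 to 3584), without overlap. The part of these lists in the result was not tested either.

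After PBS, KO and wild type could not be told apart for the members, which does not show that they were equal. Cd163 averaged 31.8 in KO PBS and 31.0 in wild-type PBS samples, under the filter cut of 33.7. None of the 11 probe sets was called, against 0.0444% of all probe sets (limma), and none had an unadjusted p under 0.05. The difference was -0.07 ± 0.14 for Mrc1, 0.02 ± 0.14 for Clec7a, 0.01 ± 0.25 for Cd163 and 0.24 ± 0.24 for Clec10a. It was 0.06 ± 0.16 for Mgl2, and 0.22 ± 0.21 and 0.16 ± 0.23 for the Clec4n probe sets. The widest was -1.08 ± 0.55 for the other tested Msr1 probe set (adjusted p = 0.76).

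**Figure D4:**
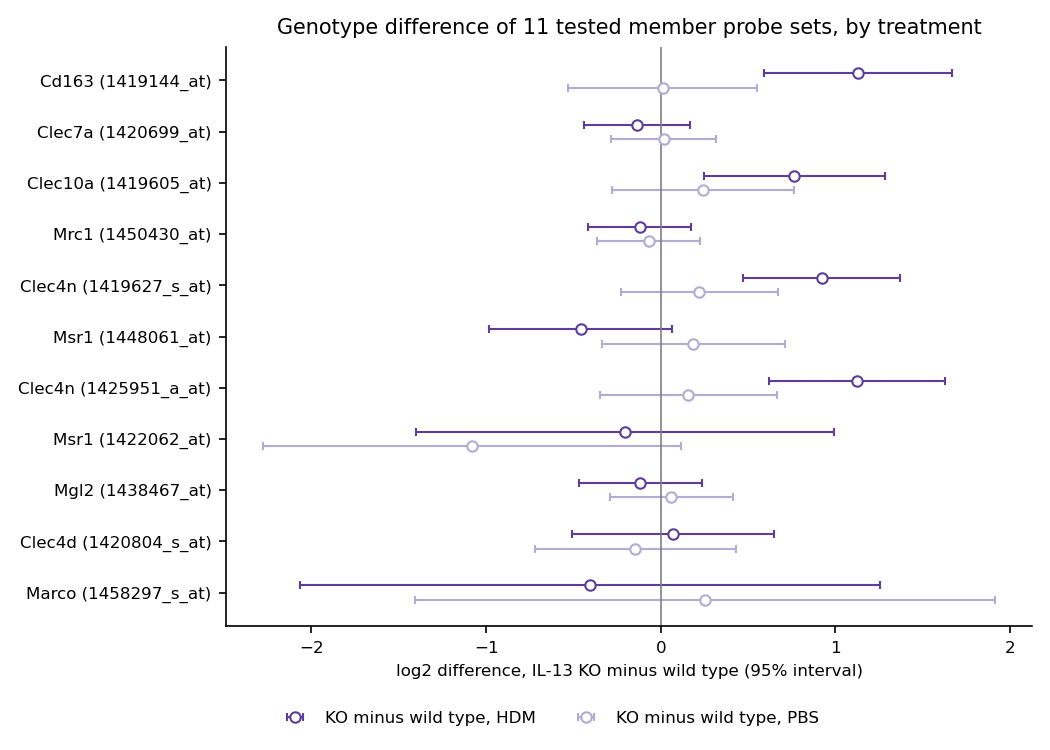
Log2 difference between IL-13 KO and wild type (x axis, with 95% intervals from limma) for the 11 tested member probe sets (y axis), after HDM (dark, above) and after PBS (light, below); open points were not called, which was the case for all 22. After HDM the intervals of Cd163, Clec10a and both Clec4n probe sets lie above 0, from 0.24 at the lowest, and after PBS every interval includes 0.

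Other receptors of both classes were counted from lists, with each gene represented by its tested probe set of highest mean. On this gene level 5.72% of 14489 genes were called higher and 5.33% lower in KO after HDM, and 5.44% higher and 5.16% lower in wild type. Of 16 other scavenger receptors tested, 2 rose in KO and 5 in wild type, and none fell. The wild-type count was 3 without the muscle samples, where Cd14 was lost (0.056), and 3 with a filter at the 50th percentile. In KO 4 were called with quantile normalization or with the array sets fitted separately. The endosomal glycoprotein Cd68 rose by 1.57 in KO and 1.76 in wild type, and Cxcl16, a chemokine that also takes up oxidised lipoprotein, by 0.95 and 0.93. In wild type Olr1, a receptor of oxidised lipoprotein, rose by 2.14, Cd14, a coreceptor for endotoxin, by 0.76 and Cd5l by 1.14. Their values in KO, 0.41, 0.37 and 0.75, were not called (limma, adjusted p = 0.29, 0.15 and 0.067).

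Of 22 other C-type lectin and lectin-like receptors tested, 9 rose and 3 fell in KO, and 6 rose and 3 fell in wild type, where the 9 called became 5 without the muscle samples. Cd209e and Cd209d, mouse relatives of human DC-SIGN, rose by 3.30 ± 0.35 and 2.95 ± 0.32 in KO and by 1.91 ± 0.35 and 1.30 ± 0.32 in wild type (adjusted p = 0.00014 and 0.00017 in KO, 0.0049 and 0.028 in wild type). Cd209d had a signal of 167 ± 12.2 in KO HDM against 16.8 ± 8.91 in KO PBS samples, and 89.8 ± 10.9 in wild-type HDM against 33.8 ± 13.8 in wild-type PBS samples. The difference of the HDM effects of Cd209d was not called (1.65 ± 0.45, adjusted p = 0.55). Cd209e averaged 21.4 in KO PBS and 27.9 in wild-type PBS samples. The PBS means of both genes lay near or under the filter cut of 33.7, so that they passed it through their HDM samples. Clec4a3 rose by 1.87 in KO and 2.41 in wild type, and Lgals3, the galactose-binding galectin of macrophages, by 1.15 and 1.91. Clec14a, a lectin of endothelium, fell by 0.84 in KO and by 0.82 in wild type, and the endothelial thrombin receptor Thbd fell by 0.78 and 0.65.

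Genes of the lectin signalling route rose in 7 of 13 tested in KO and 6 of 13 in wild type, and none fell. Without the muscle samples 3 were called in wild type, and Fcer1g was lost (0.052). Syk rose by 1.1 ± 0.18 in KO and 1.26 ± 0.18 in wild type (adjusted p = 0.0026 and 0.00098). Fcer1g, the Fc receptor gamma chain used by Dectin-2, rose by 1.03 ± 0.20 and 1.28 ± 0.20 (0.0074 and 0.0018). Tyrobp, another adaptor with an activation motif, rose by 0.98 ± 0.14 and 0.87 ± 0.14 (0.0012 and 0.0023). None of the 13 was called in any of the 3 comparisons that involve genotype.

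Macrophage and monocyte markers rose in part after HDM. Of 17 tested, 9 rose and 1 fell in KO, and 10 rose in wild type (6 called without the muscle samples). Their summed signal was 14405 to 15420 in KO HDM against 8431 to 10779 in KO PBS samples, and 12680 to 15734 in wild-type HDM against 9232 to 9650 in wild-type PBS samples. Adgre1, which encodes the macrophage antigen F4/80, had 427 ± 51.4 in KO HDM and 181 ± 10.2 in KO PBS samples, and 393 ± 40.4 in wild-type HDM and 210 ± 49.4 in wild-type PBS samples. Csf1r, the receptor of the macrophage growth factor, rose by 0.70 in KO and 0.68 in wild type. Other listed markers differed in direction between the genotypes. Fabp4 averaged 102 after HDM against 208 after PBS in KO, and 467 against 315 in wild type. Lyz2 averaged 5120 against 4766 in KO, and 4471 against 5107 in wild type. The part of these markers in the members' changes was not tested. None of the 17 was at 0 in any sample (lowest, Siglec1 at 6.65), and Siglecf, an alveolar macrophage and eosinophil marker, did not exceed 48.3 in any sample.

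The list named type 2 macrophage products had negative differences of the HDM effects in the median (-1.31 over 10 genes). Whole-lung RNA does not show which cells made them, and Alox15 and Ccl22 also stood on the eosinophil and dendritic cell lists. Of these 10, 7 rose in KO and 10 in wild type, and 1, the chitinase-like Chil4, was called for the difference of the effects (-4.87 ± 0.65, adjusted p = 0.015). That call was lost without any one of the KO HDM samples or wild-type HDM replicate 1 or 2 (0.052 to 0.068), without the muscle samples (0.21) and without the samples of low actin ratio (0.088). Arginase Arg1 had 289 ± 42.4 in KO HDM against 8.44 ± 3.31 in KO PBS samples, and 1145 ± 518 in wild-type HDM against 12.6 ± 15.1 in wild-type PBS samples. Chil3, which had the smallest p of the list in both genotypes (limma), rose by 2.53 ± 0.17 in KO and by 2.74 ± 0.17 in wild type. It averaged 3203 in KO HDM against 549 in KO PBS samples, and 3711 in wild-type HDM against 563 in wild-type PBS samples. The PBS means of Arg1, Ccl22 (23.3 in KO and 13.5 in wild type), Alox15 (29.2 and 20.9) and Socs1 (31.9 and 16.8) lay under the filter cut of 33.7. These genes passed the filter only through their HDM samples, which favours a rise in the counts. Whether the receptor list and this list differ was not tested.

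Lists of other cell types and of cell cycle genes were also counted. Of 10 eosinophil genes listed, 2 were tested, and both rose in both genotypes. Rnase2a rose by 6.17 in KO and 6.20 in wild type and Alox15, which macrophages also make, by 2.27 and 3.69. Their PBS means lay under the filter cut of 33.7 (Rnase2a 16.6 in KO and 27.3 in wild type, Alox15 29.2 and 20.9). They thus passed the filter only through their HDM samples. Prg2, Epx, Ccr3, Il5ra and Siglecf lay under the filter, with no sample above 50.7. Of 13 cell cycle genes, 11 rose in each genotype. In wild type 5 were called without the muscle samples, 6 with only the groups compared, and 7 without the samples of low actin ratio or without wild-type HDM replicate 1 or 3 or wild-type PBS replicate 2. The part of these lists in the members' changes was not tested. Dendritic cell markers rose in 7 of 13 in KO and 6 of 13 in wild type, among them Irf4 (2.24 and 1.72) and Cd83 (1.37 and 2.09), and 4 were called in KO with a filter at the 50th percentile. The PBS means of the dendritic cell markers Batf3, Flt3 and Ccl22 lay under the filter cut in both genotypes, so that they passed it through their HDM samples. Of 10 neutrophil markers tested, Lcn2, which epithelium also makes, was called, higher in both genotypes (1.02 and 1.38). Its wild-type call was lost without the muscle samples (0.085). The median difference over the 10 was 0.26 in KO and -0.04 in wild type, and the markers went both ways. S100a8 averaged 157 after HDM against 285 after PBS in KO, and 108 against 149 in wild type. Csf3r averaged 164 against 126 in KO, and 123 against 80.4 in wild type. Counted in either direction, 3 were called in KO and 2 in wild type with the array sets fitted separately. The KO count was also 3 with only the groups compared or without wild-type PBS replicate 1, and 2 without wild-type PBS replicate 3. Lymphatic and sinusoidal endothelium, which also expresses the mannose receptor, had 0 of 5 markers called in either genotype (limma), with Lyve1 at -0.51 in KO (adjusted p = 0.11) and -0.33 in wild type (adjusted p = 0.33). Lyve1 was called in KO with only the groups compared (0.037) or without wild-type PBS replicate 3 (0.047). The skeletal muscle list had 0 of 8 called in either genotype (limma), with a summed signal of up to 4720 in wild-type HDM samples.

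Genes whose log2 values followed each member most closely over the 12 samples are given as a description, since the HDM and PBS groups dominate these correlations. Clec7a was most like Trem2 (r = 0.99), a lipid receptor of macrophages, and Mrc1 was most like Wfdc17, Ms4a6d and Trem2 (r = 0.99 each). Cd163 was most like the B lineage gene Tnfrsf13b, then Sec61a1 and the B lineage gene Mzb1 (r = 0.98, 0.98 and 0.97). Clec10a was most like the mast cell proteases Mcpt2 and Mcpt1 (both r = 0.98), then Cybb (r = 0.97). Mgl2 was most like Il1rn, the antagonist of the interleukin 1 receptor (r = 0.97), and Msr1 most like Naip5, a sensor of flagellin (r = 0.95). Clec4n was closest to 4933434E20Rik (r = 0.92), Clec4d to Uggt2 (r = 0.91) and Marco to Bloc1s3 (r = 0.94).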

How the data were processed

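Lung RNA of 12 samples was measured on 24 Affymetrix-type arrays, 2 per sample (first and second array set), with group, replicate and set read from the sample titles. The deposited values were linear intensities, and the software that made them is not given in the sources used here. Every array had a mean of 150.04 (first set) or 150.02 (second set) after trimming 2% from each end, so the authors had scaled the arrays, and this was kept. No detection calls were used, so the number of arrays limits the precision. Control probe sets were left out, the 100 probe sets on both sets were tested on the first, and those averaging below the 30th percentile of intensities of the array set (33.7 and 43.4) were not tested. Values were converted to log2(intensity + pseudocount), the pseudocount being the 10th percentile of the set (7 and 11). Limma 3.58.1 in R 4.3.3 fitted the 4 groups (8 residual degrees of freedom) with eBayes, an intensity trend and Benjamini-Hochberg adjustment within each comparison across all genes. The fit was tested on simulated data. Members and lists were chosen with earlier results of these data known. All members were named. From each list up to 4 called genes of smallest p, or 2 where none was called, were picked per comparison. Some picked genes are not named here, among them C1qa, C1qc and the cell cycle genes. Others, among them Adgre1 and Csf1r, are named without having been picked. The labels do not say whether replicate numbers pair samples, and the main fit treated samples as unpaired. Of 18 same-number pairs, 5 had correlations of deviations over 0.1, which cannot decide it with 3 samples per group. Gene names came from the platform annotation.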

Additional observations from a re-analysis of the deposited data

How the results depend on the processing

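The count of member probe sets called for the HDM effect was 6 in each genotype. Leaving out single samples gave 5 to 6 in wild type and 4 to 6 in KO. When the 3 samples rich in muscle RNA were dropped, 1 wild-type HDM sample remained and was assumed to vary like the others, and the wild-type count was 3, as Clec10a (1.25, adjusted p = 0.14), Mgl2 (0.48, 0.37) and Msr1 (0.96, 0.15) were not called. Without the 2 samples of lowest actin ratio, an alternative chosen after seeing the data, Mgl2 and Msr1 were lost in wild type (0.058 and 0.068) and Mgl2 in KO (0.051). With only the 2 groups compared, Mgl2 (0.068) and Msr1 (0.078) were lost in wild type and Mgl2 in KO (0.053). Mgl2 in KO was also lost with no filter (0.051) and without the muscle samples (0.052), and the second Clec4n probe set was gained in KO with the sets fitted separately (0.028). For KO against wild type after HDM the count of 0 became 1 with a pseudocount of 32 (Cd163, 0.044), 1 without the intensity trend (the second Clec4n probe set, 0.043) and 3 with the array sets fitted separately. The replicate block gave 6 called member probe sets in wild type and 5 in KO, where Mgl2 was lost (adjusted p = 0.067). With it none was called in the other 3 comparisons, and 4 of 12 samples correlated best with their own number. Counts of 0 for the interaction and for KO against wild type after PBS held in all settings run. No called member changed sign in any setting. With a filter on mean log2 signal, also chosen after seeing the data, the member counts were 6, 6, 0, 0 and 0. Over all probe sets, counts that moved by over 1.5 times were, for the HDM effect in wild type (2468), 1181 with only the 2 groups compared, 993 without the muscle samples, 1424 without the samples of low actin ratio and 1407 without wild-type HDM replicate 3. In KO (2739) they were 1798 without the samples of low actin ratio and 1563 to 1822 without KO HDM replicate 1, 2 or 3 or KO PBS replicate 1 or 3. For the difference of the effects (28) they were 17 with a pseudocount of 1, 13 with the block, 4 without the muscle samples, 8 without those of low actin ratio, and 8 to 16 without any single sample other than KO PBS, wild-type HDM or wild-type PBS replicate 3. For KO against wild type after PBS (14) they were 2 with only the groups compared, 5 without the samples of low actin ratio, 9 without the trend or without the muscle samples, and 22 with the sets fitted separately or without wild-type PBS replicate 1. After HDM (157) they were 44 without the muscle samples, 81 without those of low actin ratio, and 73 to 87 without KO HDM replicate 1 or 3 or wild-type HDM replicate 2. The causes were not tested.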

Other observations

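Olr1, the direct neighbour of Clec7a on chromosome 6, encodes a lectin-like scavenger receptor of oxidised lipoprotein and rose in wild type as Clec7a did (2.14), with a KO difference that was not called (0.41, limma, adjusted p = 0.29). Its signal was 52.9 ± 8.78 in KO HDM samples against 38.3 ± 8.11 in KO PBS samples, and 152 ± 21.4 in wild-type HDM samples against 29.0 ± 4.51 in wild-type PBS samples (SD, n = 3 each). After HDM it was lower in KO than in wild type by -1.41 ± 0.21 (limma, adjusted p = 0.010), a call lost without KO HDM replicate 2 (0.052), wild-type HDM replicate 1 (0.051) or wild-type HDM replicate 2 (0.066). Without the 3 muscle samples, which include 2 of the 3 wild-type HDM samples, it was -1.18 and not called (0.31). The difference of its HDM effects was -1.73 ± 0.30 (adjusted p = 0.085), and it was called with the array sets fitted separately (0.011), with a pseudocount of 32 (0.044) and without the intensity trend (0.048).

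The integrin Itgax, a marker of alveolar macrophages and dendritic cells, had 862 ± 66.2 in KO HDM samples against 317 ± 18.2 in KO PBS samples. In wild type it had 1241 ± 96.6 after HDM against 239 ± 9.69 after PBS. The difference of its HDM effects, -0.92 ± 0.15, was called (adjusted p = 0.047), and the call was lost without any single one of the 12 samples (adjusted p = 0.077 to 0.16). It was also lost with a pseudocount of 1 (0.058), no filter (0.057), quantile normalization (0.053), no intensity trend (0.19), the replicate block (0.13), without the muscle samples (0.49) and without the samples of low actin ratio (0.30).

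Among deviations of the 12 samples from their group means, Cd163 and Mrc1 had the highest correlation of all pairs of tested member probe sets (r = 0.88 over 55 pairs). Both probe sets come from the same arrays, and the pair was chosen after the values were seen.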
